A study of Mus musculus with 24 samples.

Results

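Brown adipose tissue (BAT) was compared between control mice fed a high fat diet (HFD) and control mice fed a standard diet (SD), each for 16 weeks before harvest. The comparison was chosen by the sample titles and held 3 HFD arrays and 3 SD arrays, 6 of the 24 arrays in the series. Each array measured total RNA from a piece of BAT with Affymetrix probes, and the values are log2 signals. The other BAT arrays came from mice labelled Gfap-Bmal1 cKO, in which the clock gene Bmal1 (Arntl) is deleted under the direction of Gfap, an astrocyte gene, again on HFD (3 arrays) or SD (3 arrays); the remaining arrays measured the hypothalamus. The sample titles mark the control arrays WT. The labels give no strain, sex or age, and do not say which alleles the controls carried. Nor do they say whether each array stands for a mouse of its own, so the p-values reflect only how these arrays scatter, and that scatter may be technical.

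Brown fat burns fatty acids and glucose to make heat. Its adipocytes are rich in mitochondria, whose inner membrane holds the uncoupling protein UCP1, and the tissue is densely supplied with capillaries and sympathetic nerves. Long feeding of a high fat diet is known to fill brown adipocytes with larger lipid droplets, and in white fat of obese mice macrophages gather around lipid-laden adipocytes and take on a lysosomal, lipid-handling program.

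The 6 pieces of tissue did not have the same makeup, and this touches every result below. The mean log2 signal of 34 contractile genes of skeletal muscle was 6.32, 5.44 and 7.99 on HFD arrays 1 to 3, against 14.80, 5.41 and 14.88 on SD arrays 1 to 3. SD array 2 was thus as low as the HFD arrays, while SD arrays 1 and 3 held strong muscle signal. The difference in the mean was -5.12, with an exact two-sided permutation p of 0.4, where 0.1 is the smallest that 3 against 3 allows. Myh4, the myosin heavy chain of fast fibres, ranged from 4.95 on SD array 2 to 19.91 on SD array 1.

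SD array 1 also went against its BAT label. The mean of 10 brown adipocyte markers was 12.75, 12.65 and 12.64 on HFD arrays, against 7.78, 12.93 and 11.99 on SD arrays. Ucp1 stood at the ceiling of the scale, 19.93, on all 3 HFD arrays and on SD arrays 2 and 3, but at 8.87 on SD array 1. Cidea, a droplet protein of brown adipocytes, had 8.73 on SD array 1 and 18.60 and 17.93 on SD arrays 2 and 3. The mean of 6 measured markers of white fat, Hoxc8 and the adipokine genes Lep and Retn among them, was 9.65, 9.21 and 8.54 on HFD arrays and 12.26, 9.44 and 9.91 on SD arrays, highest on SD array 1. Of these markers Retn, Hoxc8 and Nnat were highest there. Lep was not, with 14.44 against 14.73 and 14.57 on HFD arrays 1 and 2, nor was Npr3, with 15.76 against 15.82 on HFD array 1. Hoxc9 lay between 4.13 and 4.28 on the 6 arrays. The mean of 8 macrophage markers was 9.08, 8.13 and 8.84 on HFD arrays, against 7.91, 6.66 and 7.21 on SD arrays, and the mean of 5 endothelial markers was 10.87, 11.80 and 10.75 on HFD arrays, against 8.87, 10.38 and 9.12 on SD arrays. Both of these means lay higher on all 3 HFD arrays than on all 3 SD arrays. All 5 endothelial markers had groups apart, but of the 8 macrophage markers Csf1r, Mrc1 and Aif1 overlapped. Over all genes tested, 14.1% had the groups apart with HFD higher. The mean of a longer list of 20 macrophage genes overlapped as well, with 7.54, 6.85 and 7.41 on HFD arrays and 6.85, 5.84 and 6.43 on SD arrays.

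**Figure D1:**
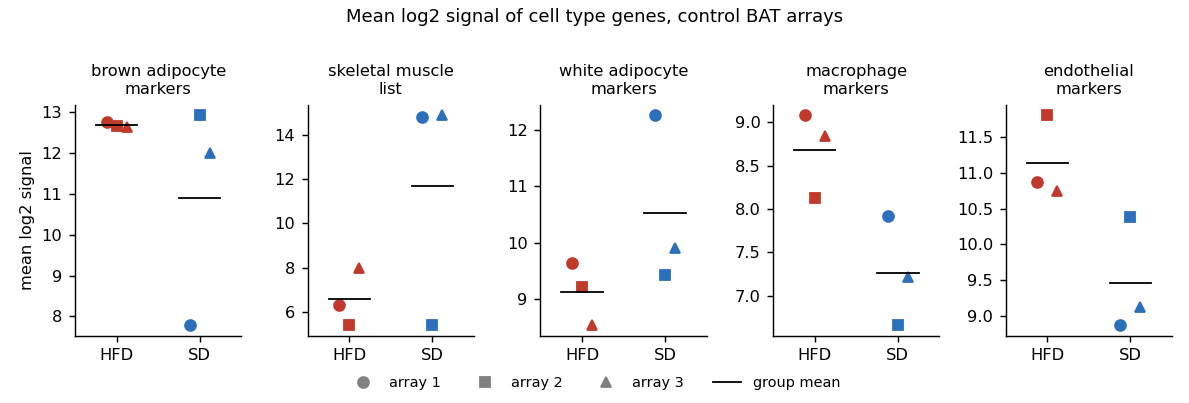
Mean log2 signal of the genes of 5 cell types (vertical axes, a separate scale for each panel) on the 3 HFD and the 3 SD arrays of control BAT; each symbol is 1 array and the line is the group mean. SD arrays 1 and 3 carry the muscle genes at 14.80 and 14.88, SD array 1 lacks much of the brown signal, and the macrophage and endothelial means of the HFD arrays lie above those of the SD arrays.

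Values below are over all arrays unless another basis is named. For part of the genes and lists the difference is also given against SD array 2 alone (the SD array with brown markers high and muscle genes low, which has no replicate), or from a fit with the muscle mean of each array as a covariate. The arrays within HFD correlated at 0.9907 to 0.9956 and those within SD at 0.9132 to 0.9795.

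Over all arrays, 109 genes rose on HFD (0.613% of 17776 genes tested) and 23 fell (0.129%), at a limma adjusted p under 0.05. These shares over all genes are the baseline for the counts of list members that passed. The lowest adjusted p was 0.0269, and 4017 genes (22.6%) had an unadjusted p under 0.05. The median difference of the genes that rose was 1.16 on the log2 scale and that of the genes that fell was -0.919, beside 0.04 over all genes. In all 132 the 3 HFD arrays did not overlap the 3 SD arrays, which 14.1% of all genes also showed in the higher and 10.7% in the lower direction.

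These counts rested on single arrays. They were 0 without HFD array 1 or SD array 3, 4 without HFD array 2, 11 without SD array 1, 88 without HFD array 3 and 2677 (1539 higher and 1138 lower) without SD array 2. The 2677 come from a comparison in which both remaining SD arrays held muscle signal. With the muscle covariate 0 genes passed in limma (lowest adjusted p 0.0661), with 1761 (9.91%) at an unadjusted p under 0.05. All 132 genes, which were selected on these same arrays, kept their direction and an unadjusted p under 0.05 in that fit. With the covariate the difference was larger in 40 of the 109 that rose and in 6 of the 23 that fell. Against SD array 2 alone it was smaller in 73 of the 109, in 19 of them by more than 1.5 times, and in 20 of the 23, in 4 of them by more than 1.5 times; the medians there were 0.912 and -0.72. A fit on the 6 control arrays alone turned the balance round, with 23 genes higher and 129 lower, of which 22 were among the 132.

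Genes of macrophages led the rises: of the 12 largest among named genes, 5 belonged to the 2 macrophage gene lists (Mmp12, Ctss, Cd68, Mpeg1 and Cd84). Mmp12, a metalloelastase of macrophages, had log2 signals of 8.23, 7.30 and 8.59 on HFD arrays 1 to 3, against 4.32, 4.19 and 4.17 on SD arrays 1 to 3. Ctss, a lysosomal cysteine protease of antigen-presenting cells, had 11.27, 9.88 and 12.09 on HFD and 7.87, 7.05 and 7.36 on SD. Cd68, a lysosomal glycoprotein used as a macrophage marker, had 9.35, 8.29 and 10.23 on HFD and 6.93, 6.09 and 6.28 on SD. In each of these genes HFD array 2 was the lowest of its group and still lay above every SD array. In Ctss and Cd68 the SD array without muscle signal was the lowest of its group. Mmp12 was near the dim end of the scale on all SD arrays, so the closeness of its SD values says little about makeup. Mmp12 rose by 3.81 ± 0.55 on the log2 scale (SE; adjusted p = 0.033), Ctss by 3.65 ± 0.58 (adjusted p = 0.0383) and Cd68 by 2.85 ± 0.41 (adjusted p = 0.033).

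The rises were not smaller against the SD array without muscle signal. Against SD array 2 alone the differences were 3.85 for Mmp12, 4.03 for Ctss and 3.20 for Cd68, and with the muscle covariate they were 4.37, 4.003 and 3.18. Leaving out any 1 array moved them within 3.54 to 4.18 for Mmp12, 3.15 to 4.25 for Ctss and 2.38 to 3.35 for Cd68. The adjusted p then ran from 0.0146 to 0.159 for Mmp12, from 0.0171 to 0.167 for Ctss and from 0.0147 to 0.159 for Cd68. In bulk tissue, more cells of a type and more RNA per cell cannot be told apart.

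Other genes of the same lineage rose with them. Lilrb4a, an inhibitory immunoglobulin-like receptor of myeloid cells, had 10.37, 9.47 and 11.93 on HFD and 7.92, 6.52 and 7.04 on SD, a rise of 3.43 ± 0.58. Its near-identical neighbour Lilr4b rose by 2.78 ± 0.47, and probes of the pair may not separate them. Mpeg1, which encodes a pore-forming protein of phagocytes, had 8.80, 7.80 and 8.61 on HFD and 5.60, 5.41 and 5.74 on SD, a rise of 2.82 ± 0.41. Cd84, a receptor of the SLAM family, rose by 2.25 ± 0.39. Lcp1, the leukocyte actin-bundling protein L-plastin, had 8.55, 7.58 and 8.74 on HFD and 6.37, 5.90 and 5.99 on SD and rose by 2.20 ± 0.26 (adjusted p = 0.0269). In 6 fits that left out 1 array each, Lcp1 passed without HFD array 2, HFD array 3, SD array 1 or SD array 2, and missed the threshold without HFD array 1 or SD array 3, with adjusted p from 0.00174 to 0.148. Hmox1, heme oxygenase, which breaks down heme and is abundant in macrophages that clear red cells, had 8.84, 7.38 and 8.49 on HFD and 6.37, 5.71 and 6.19 on SD, a rise of 2.15 ± 0.34.

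**Figure D2:**
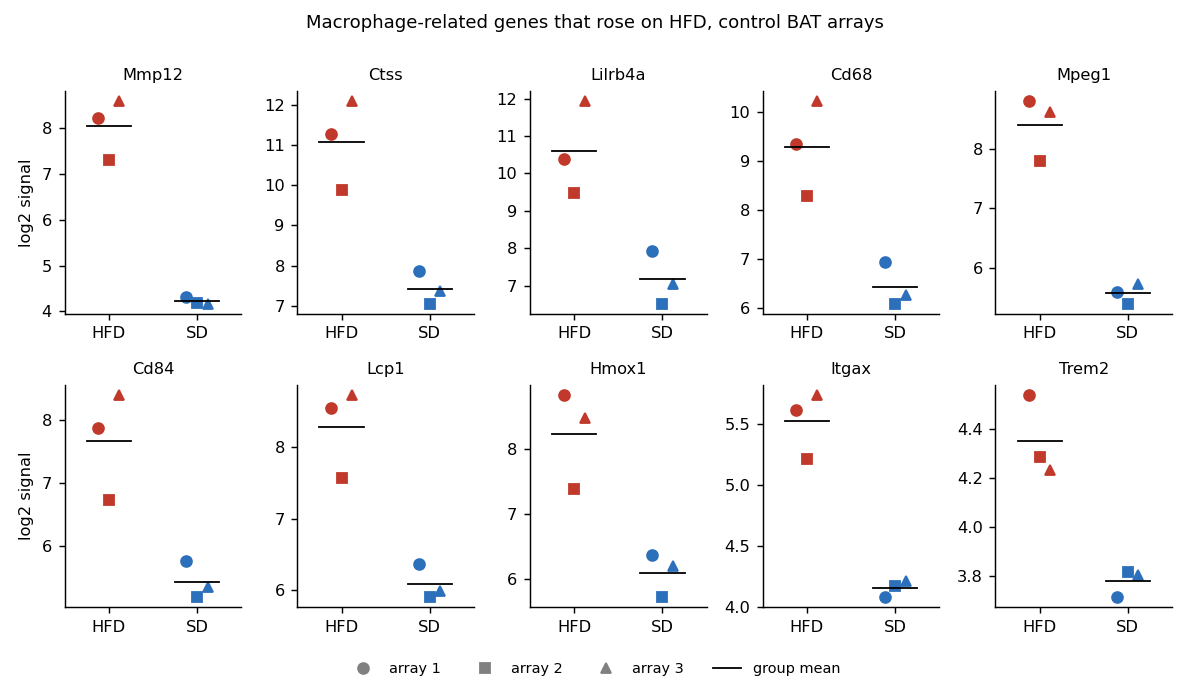
Log2 signal (vertical axes, a separate scale for each gene) of 10 genes expressed by macrophages on the 3 HFD and the 3 SD arrays of control BAT; each symbol is 1 array and the line is the group mean. All HFD arrays lie above all SD arrays in each panel. Mmp12 stays between 4.17 and 4.32 on the SD arrays, near the dim end of the scale.

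Lipid-associated macrophages are those of obese fat that express the lipid receptor TREM2 and lysosomal genes. Of 15 tested genes of a list for them, 5 rose (Trem2, Mmp12, Itgax, Cd84 and Ctss), 0 fell and 10 did not pass. Of all genes 0.613% rose. The 15 differences were positive, as were 56.0% of all genes. The list also holds Plin2, Lipa and Fabp5, which stand on the lists of lipid droplets or of fatty acid uptake and lipolysis as well. Among the SD arrays, Plin2 and Lipa were lowest on array 1 and highest on array 2. Their differences were 2.21 and 3.25 over all arrays, and 0.65 and 1.11 against SD array 2 alone. Trem2 itself was near the dim end of the scale, at 4.54, 4.28 and 4.23 on HFD and 3.71, 3.82 and 3.80 on SD, a rise of 0.57 ± 0.10. Its SD mean was below the brightness that a gene's mean over the BAT arrays had to reach to be tested, so it entered only through brighter arrays and its count among the rises carries no weight. Itgax, the integrin CD11c of dendritic cells and inflammatory fat macrophages, had 5.62, 5.22 and 5.74 on HFD and 4.08, 4.17 and 4.21 on SD, a rise of 1.37 ± 0.18. Both groups of values were narrow and apart, at low signal. The median difference of the list was 1.74, 1.36 against SD array 2 alone and 1.51 with the muscle covariate.

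Of 20 general macrophage genes, 2 rose (Cd68 and Mpeg1), 0 fell and 18 did not pass, while 0.613% of all genes rose. The 20 differences were positive in 16 and negative in 4, beside 56.0% positive over all genes. Mrc1, the mannose receptor of tissue macrophages, had 11.21, 9.92 and 10.66 on HFD and 11.49, 8.97 and 10.37 on SD, with overlapping groups (difference 0.32 ± 0.94). Csf1r, the receptor for the growth factor CSF1, likewise overlapped, and differed by 0.49 ± 0.44. The pan-macrophage receptor Adgre1, also called Emr1, had 8.46, 7.22 and 7.88 on HFD and 6.74, 5.78 and 6.14 on SD, a difference of 1.63 ± 0.36 (adjusted p = 0.0678). The complement gene C1qb had 10.25, 9.33 and 9.74 on HFD and 8.04, 6.72 and 7.32 on SD, a difference of 2.41 ± 0.53 (adjusted p = 0.0693). Neither gene's groups overlapped, and both differences were larger against SD array 2 alone, at 2.07 and 3.05. The median of the 20 genes was 0.73, 1.30 against SD array 2 alone and 0.69 with the muscle covariate.

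Of 19 lysosomal genes, 18 differences were positive, beside 56.0% of all genes, but only Ctss passed. Their median was 0.70, and 0.55 against SD array 2 alone. The cathepsin gene Ctsz had 15.82, 15.63 and 15.03 on HFD and 9.92, 13.94 and 11.85 on SD, with an adjusted p of 0.0984. The difference was 3.59 over all arrays, 2.60 without SD array 1 and 1.55 against SD array 2 alone, which leaves out SD arrays 1 and 3. Lamp1, a glycoprotein of the lysosomal membrane, differed by 0.77 ± 0.20 (adjusted p = 0.0974), and by 0.62 against SD array 2 alone.

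The stretch before the start of these genes was examined for short words bound by transcription factors of the myeloid lineage. RefSeq gives a start on assembly GRCm38.p6 for all 7 genes of the 2 macrophage lists that rose (Cd68, Cd84, Ctss, Itgax, Mmp12, Mpeg1 and Trem2), with 2 starts for Mmp12. The word TGACTCA, bound by AP-1 factors, or its reverse complement TGAGTCA lay in the 250 bases upstream of 4 of the 7 genes. By window it lay in 4 of their 8, beside 4.46% of 32851 such windows of mouse genes. The 7 genes were selected on these same arrays, with Trem2 of no weight as said above, and no enrichment was tested. The 4 windows are shown because they hold the word, which stands in capitals, 5′ to 3′ on the strand of the gene. They lie at chr11:69666171-69666420 (minus strand) for Cd68, chr1:171839447-171839696 (plus strand) for Cd84, chr7:128129300-128129549 (plus strand) for Itgax and chr9:7347124-7347373 (plus strand) for Mmp12.
Cd68: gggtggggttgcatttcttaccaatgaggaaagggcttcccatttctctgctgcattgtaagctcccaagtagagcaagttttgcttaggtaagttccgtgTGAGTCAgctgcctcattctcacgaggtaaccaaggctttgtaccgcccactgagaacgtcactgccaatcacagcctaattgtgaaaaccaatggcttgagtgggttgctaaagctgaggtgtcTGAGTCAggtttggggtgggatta
Cd84: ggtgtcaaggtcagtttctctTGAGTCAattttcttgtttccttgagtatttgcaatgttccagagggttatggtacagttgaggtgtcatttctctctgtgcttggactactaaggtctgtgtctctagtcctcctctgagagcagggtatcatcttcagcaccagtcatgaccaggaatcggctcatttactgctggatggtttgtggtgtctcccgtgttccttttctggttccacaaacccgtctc
Itgax: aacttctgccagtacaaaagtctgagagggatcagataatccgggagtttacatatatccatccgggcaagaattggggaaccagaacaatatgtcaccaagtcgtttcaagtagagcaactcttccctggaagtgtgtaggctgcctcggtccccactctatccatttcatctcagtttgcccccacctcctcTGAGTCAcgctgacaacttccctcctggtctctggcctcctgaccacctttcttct
Mmp12: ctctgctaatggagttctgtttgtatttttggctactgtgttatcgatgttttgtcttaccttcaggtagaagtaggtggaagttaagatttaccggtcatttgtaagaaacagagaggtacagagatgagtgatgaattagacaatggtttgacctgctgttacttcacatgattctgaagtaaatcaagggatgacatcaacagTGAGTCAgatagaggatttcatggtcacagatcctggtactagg
Cd68 holds the word at 2 places, at -149 and -24 from its start, Cd84 at -229, Itgax at -56 and Mmp12, before the downstream of its 2 starts, at -44. Words of the factor PU.1, a regulator of myeloid genes, were searched on both strands as well and overlap each other. GAGGAAGT lay before 1 of the 7 genes (Mmp12; 2.44% of all windows) and CAGGAAGT before 0 (2.69%). The shorter AGGAAGT lay before 1 (7.69%), GGAAGT before 2 (19.7%) and GAGGAA before 4 (23.3%). These are matches of letters and do not show binding.

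Further genes of leukocytes, Mif and some genes of iron and cholesterol handling were among the 109, named here after their values were seen. Ly96, the partner of the endotoxin receptor TLR4, had 11.90, 11.59 and 11.89 on HFD and 9.99, 9.92 and 9.97 on SD, a rise of 1.83 ± 0.28. The 6 values fall into 2 tight groups, and the difference was 1.88 against SD array 2 alone. Clec12a, an inhibitory lectin of myeloid cells, rose by 1.48, the phagocyte receptor Sirpa by 1.27, Cd180 by 1.23, Csf2ra, a receptor chain for GM-CSF, by 0.95 and Cd72 by 0.61. The receptor gene Cd300lb rose by 0.96, but its SD mean, like that of Trem2, was below the brightness needed for testing. Mif, the macrophage migration inhibitory factor, had 9.37, 9.68 and 9.49 on HFD and 7.47, 8.20 and 7.78 on SD and rose by 1.69 ± 0.17; its pseudogenes Mif-ps and Mif-ps3 rose too, and near-identical copies may share probe signal. The phagosomal metal transporter Slc11a1 rose by 0.92, the ferritin light chain gene Ftl1 by 1.46 and Abcg1, which exports cholesterol, by 0.86. The iron transporter Slc11a2 rose by 1.19, and its difference was 0.70 against SD array 2 alone.

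Few genes of the other immune lists passed. Of 5 tested genes of T, B and NK cells, 0 passed, with a median of 0.0787, and 12 of the 17 on the array were too dim to be tested. Of 18 chemokine and cytokine genes 1 rose, Cxcl16, a chemokine that also binds oxidised lipoprotein, with 5.64, 5.70 and 5.42 on HFD and 4.80, 4.99 and 4.76 on SD, a rise of 0.74 ± 0.14. The median of these 18 was 0.53, and 0.56 against SD array 2 alone. Of them 14 differences were positive, beside 56.0% of all genes, and 10 had all HFD arrays above all SD arrays, beside 14.1%. Among the 18, the SD mean of Ccl5 was below the brightness needed for testing, so its place in these counts carries no weight. Cxcl12, a chemokine of stromal and vessel cells, differed by 1.14 ± 0.24 (adjusted p = 0.0628). Of 16 interferon-responsive genes and 9 genes of MHC class II presentation, 0 passed, with medians of 0.26 and 0.17. The antiviral gene Rsad2 had 8.03, 8.77 and 8.75 on HFD and 5.81, 7.86 and 6.75 on SD (difference 1.71 ± 0.56, adjusted p = 0.137).

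Vessel genes formed another group among the rises. Eng, endoglin, a co-receptor of endothelial cells for TGF-beta and BMP ligands, had 10.69, 11.73 and 10.63 on HFD and 7.81, 9.59 and 8.30 on SD. Pecam1, the adhesion protein CD31, had 10.31, 11.05 and 9.85 on HFD and 8.61, 9.24 and 8.49 on SD. Cldn5, the tight junction claudin of endothelium, had 7.32, 7.81 and 6.52 on HFD and 5.91, 5.74 and 5.28 on SD. In all of these HFD array 2 was highest. In Eng and Pecam1 the SD array without muscle signal was the highest of its group, so muscle and vessel signals ran opposite among the SD arrays; what part this had in the result was not tested.

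Eng rose by 2.45 ± 0.44 (SE; adjusted p = 0.0418), Pecam1 by 1.62 ± 0.29 (adjusted p = 0.0383) and Cldn5 by 1.58 ± 0.29 (adjusted p = 0.0424). Against SD array 2 alone the differences were 1.42, 1.16 and 1.47, and with the muscle covariate 1.89, 1.21 and 1.40. Adgrl4, an adhesion receptor of endothelial cells also called ELTD1, had 12.68, 13.24 and 12.53 on HFD and 10.21, 11.48 and 10.59 on SD, a rise of 2.06 ± 0.31 that was 1.33 against SD array 2 alone. Cdh5, the cadherin of endothelial junctions, had 12.97, 14.10 and 12.40 on HFD and 10.90, 12.25 and 10.86 on SD and did not pass (adjusted p = 0.0942). Of 18 genes of endothelial and mural cells, 3 rose, 0 fell and 15 did not pass, while 0.613% of all genes rose. The median of the 18 was 0.93 over all arrays, 0.34 against SD array 2 alone and 0.44 with the covariate.

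Meox1, a homeobox factor, had 6.22, 6.08 and 5.69 on HFD and 4.55, 4.18 and 4.31 on SD, and rose by 1.65 ± 0.19 (adjusted p = 0.0269). Pdgfb, the growth factor by which endothelium recruits pericytes, rose by 0.86, and Edn1, the vasoconstrictor endothelin, by 0.76; both were named after their values were seen. Edn1 had 6.21, 6.34 and 5.97 on HFD and 5.40, 5.41 and 5.43 on SD, so the SD arrays differed little whatever their makeup. Gpihbp1, the endothelial protein that carries lipoprotein lipase across capillaries, had 9.61, 10.60 and 9.35 on HFD and 8.36, 9.25 and 8.22 on SD (difference 1.24 ± 0.35, adjusted p = 0.107).

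**Figure D3:**
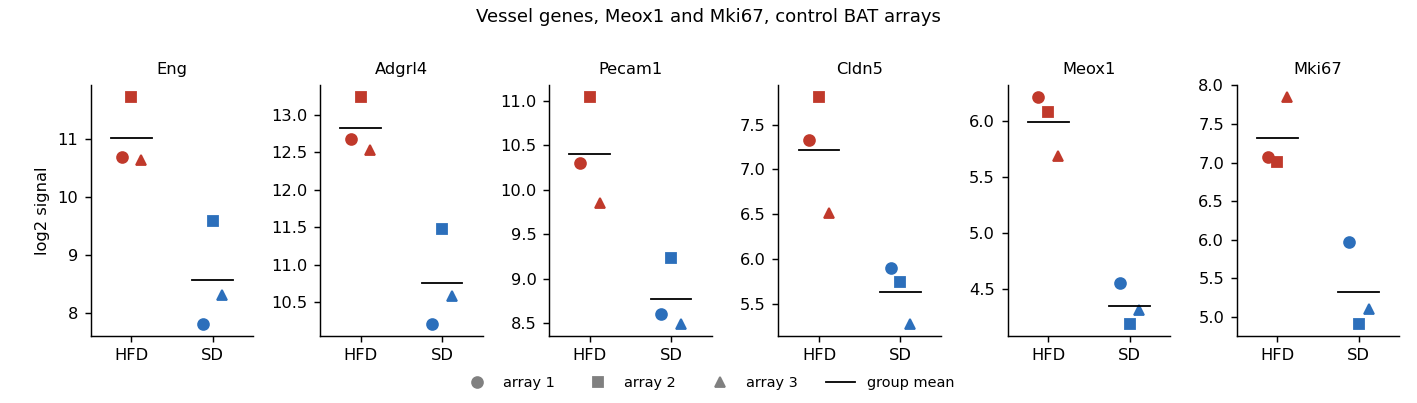
Log2 signal (vertical axes, a separate scale for each gene) of 4 endothelial genes, the homeobox gene Meox1 and the proliferation gene Mki67 on the 3 HFD and the 3 SD arrays of control BAT; each symbol is 1 array and the line is the group mean. The HFD arrays lie above the SD arrays in every panel, and SD array 2 is the highest SD array for Eng, Adgrl4 and Pecam1.

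Among genes of dividing cells 1 passed, and most others had positive differences at low signal. Mki67, the antigen Ki-67 of cycling cells, had 7.08, 7.01 and 7.86 on HFD and 5.97, 4.90 and 5.10 on SD, a rise of 1.99 ± 0.34 (adjusted p = 0.0383) that was 2.41 against SD array 2 alone. Of 14 cell cycle genes tested it alone passed, and 12 differences were positive, beside 56.0% of all genes, with a median of 0.50. Top2a, the topoisomerase of replicating chromosomes, had 5.20, 5.13 and 5.90 on HFD and 4.70, 4.41 and 4.40 on SD, and the mitotic kinesin gene Kif11 had 5.57, 5.41 and 5.95 on HFD and 5.06, 4.38 and 4.84 on SD. Their groups did not overlap, but their adjusted p of 0.0744 and 0.0795, and 0.0869 for the spindle checkpoint gene Bub1b, missed the threshold. The SD mean of Bub1b, like that of Trem2, was below the brightness needed for testing, so its place among the 14 carries no weight. Outside the list, 4 genes of replication and division were seen among the 109: Ect2 (0.65) and Kif20b (0.45), which act in cytokinesis, the histone chaperone gene Asf1b (0.71) and the maintenance methyltransferase gene Dnmt1 (0.45).

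Some rises belonged to none of these groups. Ryr2, a calcium release channel best known from heart, had 7.14, 7.15 and 6.14 on HFD and 4.22, 4.54 and 4.27 on SD, a rise of 2.46 ± 0.43 (adjusted p = 0.0383). The SD arrays lay within a narrow band for this gene, with or without muscle signal, but near the dim end of the scale. Hk1, a hexokinase that starts glucose use, had 7.64, 7.90 and 7.52 on HFD and 5.35, 6.31 and 5.56 on SD, a rise of 1.95 ± 0.33. Pltp, a phospholipid transfer protein secreted by several tissues, had 12.60, 12.56 and 12.35 on HFD and 9.97, 11.48 and 10.78 on SD and rose by 1.76 ± 0.30, or 1.03 against SD array 2 alone. Msn, the cortical actin linker moesin, rose by 1.61 ± 0.18 and was named after its values were seen. Tnc, the matrix glycoprotein tenascin C, rose by 0.81 ± 0.09 and was the sole call among 26 matrix genes. Creld2, a factor of the endoplasmic reticulum induced under protein folding stress, rose by 0.75 ± 0.12. It was the sole call among 19 genes of the unfolded protein response. Of these 16 differences were positive, beside 56.0% of all genes (median 0.47, and 0.13 against SD array 2 alone). The chaperone gene Calr, calreticulin, differed by 0.64 ± 0.17 (adjusted p = 0.0989).

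In the fit on 12 BAT arrays fewer genes fell than rose, while the fit on the 6 control arrays alone had more falls. The largest fall over the 12 arrays was of Irs1, the insulin receptor substrate that couples the receptor to PI3 kinase, with 7.33, 7.39 and 7.51 on HFD arrays 1 to 3, against 9.75, 9.02 and 9.75 on SD arrays 1 to 3. The HFD arrays were nearly equal, and SD array 2 was the lowest of the SD arrays. Irs1 fell by 2.09 on the log2 scale (SE 0.38, adjusted p = 0.0409), and the difference was -1.61 against SD array 2 alone and -1.64 with the covariate. Over the 6 fits without 1 array its difference was -2.34 to -1.97 and its adjusted p 0.0146 to 0.185.

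Ces1f, a carboxylesterase, had 8.62, 8.56 and 8.26 on HFD and 9.86, 9.78 and 10.33 on SD and fell by 1.50. Tob1, an antiproliferative adaptor that recruits the machinery of mRNA deadenylation, had 10.76, 11.01 and 10.99 on HFD and 12.66, 12.29 and 12.14 on SD and fell by 1.45. Klhl2, a kelch protein of a ubiquitin ligase, had 8.26, 8.24 and 8.31 on HFD and 9.65, 9.58 and 9.71 on SD and fell by 1.38. For Klhl2 the 3 SD arrays lay within a narrow band although their muscle signal differed widely, and its difference was -1.31 against SD array 2 alone. Enzymes of lipid and amino acid handling were among the smaller falls. Plaat3, a phospholipase of adipocytes formerly named AdPLA, had 11.83, 11.72 and 11.56 on HFD and 13.06, 12.38 and 12.88 on SD and fell by 1.07, with a difference of -0.68 against SD array 2 alone. Acsl4, an acyl-CoA synthetase that prefers arachidonate, had 9.38, 9.20 and 9.67 on HFD and 10.37, 10.13 and 10.05 on SD and fell by 0.77. Prodh, the first enzyme of proline breakdown, had 5.94, 6.02 and 5.95 on HFD and 6.60, 6.75 and 6.77 on SD and fell by 0.74. Of these, Prodh had both diet groups within narrow bands. Lgr4, a receptor for R-spondins, had 8.23, 8.06 and 8.42 on HFD and 9.42, 9.16 and 9.17 on SD and fell by 1.01. Rsbn1l fell by 1.03, Fem1a by 0.84, Ogfrl1 by 0.84 and Cmbl by 0.76. These 12 falls were named by a rule that required an adjusted p under 0.05 and every HFD array below every SD array. Their limma adjusted p lay between 0.033 and 0.0409. Of the 23 genes that fell, 9 were predicted genes and are not named, nor are the 10 predicted genes and 1 olfactory receptor among the 109 that rose.

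**Figure D4:**
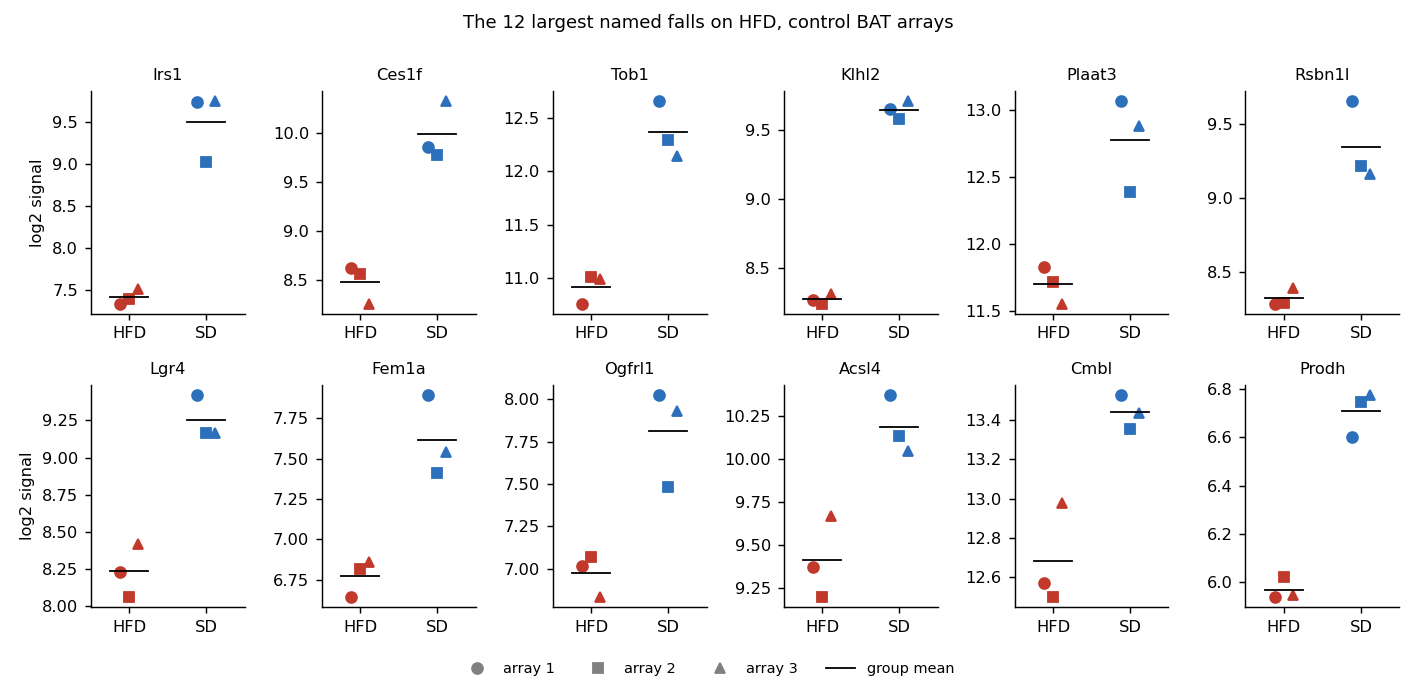
Log2 signal (vertical axes, a separate scale for each gene) of the 12 largest named falls on the 3 HFD and the 3 SD arrays of control BAT; each symbol is 1 array and the line is the group mean. Every HFD array lies below every SD array, as the naming rule required, and the SD arrays of Klhl2 lie between 9.58 and 9.71.

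Among adipokine genes the largest difference missed the threshold. Retn, resistin, secreted by mouse adipocytes, had 10.06, 8.31 and 12.32 on HFD and 17.79, 13.95 and 16.09 on SD. Its groups did not overlap and it differed by -5.71 ± 1.15 (adjusted p = 0.0581), or -3.72 against SD array 2 alone, and it passed without HFD array 3 or SD array 2 (adjusted p 0.0142 to 0.214 over the 6 fits). Nnat, neuronatin, a gene higher in white than in brown fat, had 7.45, 7.49 and 5.77 on HFD and 11.48, 8.90 and 9.57 on SD (adjusted p = 0.089). Both genes were highest on SD array 1, the array with the highest mean of white markers, to which both belong. The part of tissue makeup in their differences was not tested. Lep, leptin, had 14.73, 14.57 and 10.39 on HFD and 14.44, 12.59 and 12.72 on SD, with overlapping groups and a difference of -0.02 ± 1.20 whose sign changed in several fits. Of 13 adipokine and white adipocyte genes 0 passed.

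The genes that define brown fat metabolism did not pass, and their differences depended on the SD arrays. Of 22 thermogenic genes, 27 of fatty acid oxidation, 17 of the citric acid cycle and 36 of the respiratory chain, 0 passed in either direction. Positive differences numbered 20, 27, 16 and 36 in that order, beside 56.0% of all genes. The median differences over all arrays were 1.60, 1.58, 0.99 and 0.74 in that order. Against SD array 2 alone they were -0.14, 0.10, -0.0156 and -0.11, close to the 0.00743 of all genes, and with the muscle covariate they were 0.44, 0.56, 0.17 and 0.0525. The positive differences over all arrays thus rested on SD arrays 1 and 3. Ucp1 was at the ceiling on 5 of the 6 arrays, so no difference between diets could be read from it. Among the 27 oxidation genes, the SD mean of Acot3 was below the brightness needed for testing, so its place in the count carries no weight.

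Some single genes of fat use still differed against SD array 2 alone, by less than over all arrays and without passing. That comparison rests on an array without a replicate. Cpt1a, the carnitine palmitoyltransferase that admits fatty acids to mitochondria, in its liver form, had 10.44, 10.07 and 8.69 on HFD and 8.19, 8.02 and 7.41 on SD (difference 1.86 ± 0.40, adjusted p = 0.0655). Ppara, the nuclear receptor that drives oxidation genes, had 13.14, 12.68 and 12.74 on HFD and 7.61, 11.11 and 10.18 on SD (difference 3.22 ± 1.17, adjusted p = 0.16). Angptl4, an inhibitor of lipoprotein lipase and a target of PPAR receptors, had 11.76, 11.84 and 12.18 on HFD and 8.04, 9.97 and 8.73 on SD (difference 3.01 ± 0.73, adjusted p = 0.0854). None of these genes' groups overlapped, and against SD array 2 alone the differences were 1.71, 1.74 and 1.96. The thioesterase gene Acot2 differed by 2.46 (adjusted p = 0.126) and by 0.72 against SD array 2 alone. Pdk4, the kinase that spares glucose by blocking pyruvate dehydrogenase, had 19.33, 19.31 and 19.82 on HFD and 16.52, 18.97 and 17.81 on SD, near the ceiling. Lpl, lipoprotein lipase, was lower on HFD without passing, with 17.60, 17.13 and 17.52 on HFD and 17.95, 17.79 and 17.90 on SD (difference -0.46 ± 0.13, adjusted p = 0.106).

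Lipid storage and synthesis genes did not pass either. Of 18 genes of triglyceride assembly and droplets 0 passed, with a median of 0.81 over all arrays and -0.0822 against SD array 2 alone. The droplet coat gene Plin2 had 17.66, 17.69 and 17.73 on HFD and 13.76, 17.04 and 15.65 on SD (adjusted p = 0.149). Plin4, another perilipin, more abundant in white fat, ran the other way, with 10.47, 10.50 and 11.02 on HFD and 13.21, 11.90 and 11.97 on SD (difference -1.70 ± 0.36, adjusted p = 0.0655). Of 18 genes of fatty acid synthesis and 18 of cholesterol synthesis 0 passed. Their medians were 0.24 and 0.031 over all arrays, and -0.45 and -0.52 against SD array 2 alone, which was the array with the highest means of both lists. Fasn, fatty acid synthase, had 19.26, 19.57 and 19.72 on HFD and 18.77, 19.71 and 19.46 on SD (difference 0.21 ± 0.54), close to the ceiling, and Scd1, the stearoyl-CoA desaturase, was at the ceiling on every array. Mid1ip1, an activator of acetyl-CoA carboxylase, had 6.13, 6.37 and 6.06 on HFD and 6.61, 7.39 and 6.91 on SD (difference -0.78 ± 0.24, adjusted p = 0.12).

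**Figure D5:**
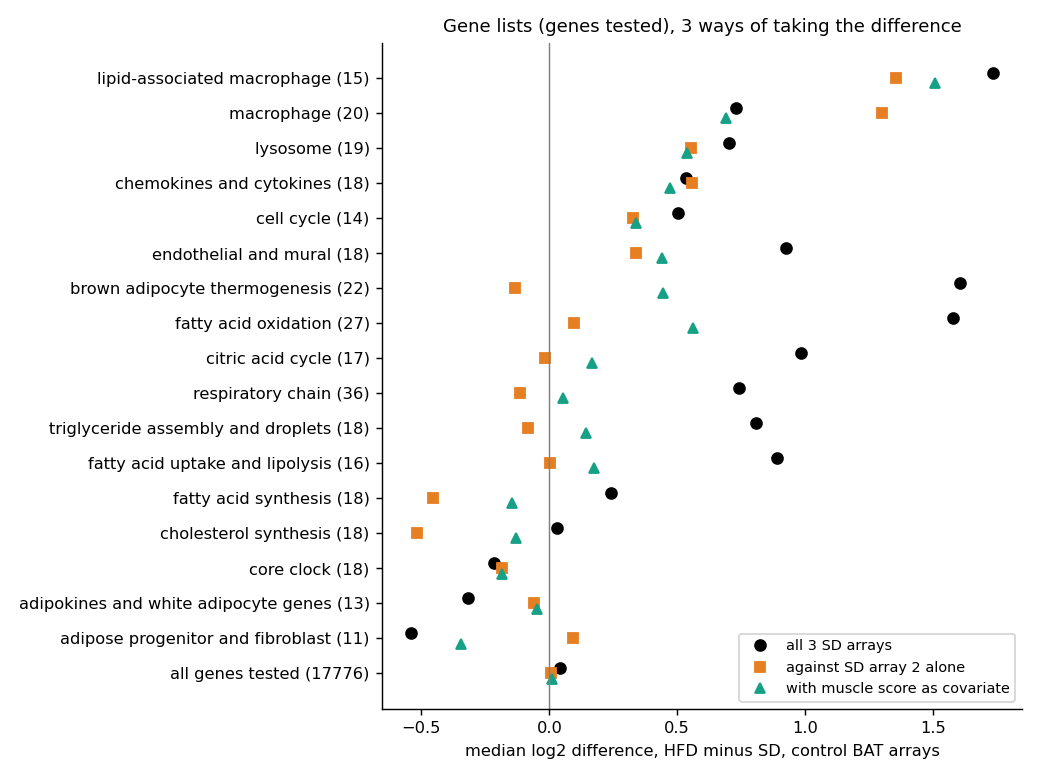
Median log2 difference, HFD minus SD (horizontal axis), of 17 gene lists and of all genes tested (rows, with the number of genes), taken over all 3 SD arrays (circles), against SD array 2 alone (squares) and with the muscle mean as a covariate (triangles). The lipid-associated macrophage list stays above 1.3 in all of these, while the thermogenic list has 1.60 over all arrays and -0.14 against SD array 2 alone.

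In glucose handling, of 21 genes Hk1 rose and Irs1 fell, while 0.613% of all genes rose and 0.129% fell. Pfkp, the platelet form of phosphofructokinase, had 10.21, 10.25 and 10.15 on HFD and 6.39, 9.09 and 7.32 on SD without passing (difference 2.60 ± 0.63, adjusted p = 0.0854). Bcat1, the cytosolic aminotransferase of branched chain amino acids, had 5.11, 5.19 and 4.85 on HFD and 4.51, 4.45 and 4.49 on SD (difference 0.56 ± 0.11, adjusted p = 0.0511). Of 19 genes of oxidant defence Hmox1 alone passed, and Gpx1, the glutathione peroxidase, had 15.44, 15.53 and 15.68 on HFD and 13.56, 14.85 and 14.06 on SD (adjusted p = 0.109).

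Clock genes were not called. Of 18, 0 passed, with a median of -0.22 and -0.18 against SD array 2 alone. Arntl had 6.29, 6.41 and 6.69 on HFD and 5.84, 5.83 and 6.34 on SD, with overlapping groups (difference 0.46 ± 0.34, adjusted p = 0.436). Clock, its partner, had 13.75, 13.54 and 13.59 on HFD and 12.21, 13.17 and 12.46 on SD (adjusted p = 0.112), and Nr1d2, a repressor of Arntl, had 11.9998, 11.55 and 11.58 on HFD and 13.39, 12.14 and 12.51 on SD (adjusted p = 0.166). Klf9, a gene responsive to glucocorticoid, had 11.997, 11.58 and 11.48 on HFD and 13.35, 12.56 and 12.83 on SD (difference -1.23 ± 0.31, adjusted p = 0.0942). The time of harvest is not in the labels.

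The 34 skeletal muscle genes had 0 calls, and all 34 differences were negative, with a median of -5.87 over all arrays and 0.87 against SD array 2 alone. Of the 37 gene lists used, 12 held at least 1 gene that rose, 1 held a gene that fell and 25 held no gene that passed. The sign of the list median was another against SD array 2 alone in 15 of the 37 lists, and with the muscle covariate in 7.

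The same diet comparison in the arrays labelled cKO, on other arrays but from the same fit, gave 0 calls in limma (0% of genes tested) with 3992 genes (22.5%) at an unadjusted p under 0.05. The muscle mean was 5.50, 8.70 and 11.18 on cKO HFD arrays, against 12.94, 15.80 and 14.92 on cKO SD arrays, so all 3 cKO SD arrays held muscle signal. Of the 109 genes that rose in controls 108 (99.1%) were also positive in cKO arrays, and 90 (82.6%) had cKO groups apart in that direction, beside 75.3% and 25.2% for sign and separation over all genes; 56.5% of all genes were positive in cKO arrays. Of the 23 that fell, 21 (91.3%) were negative and 17 (73.9%) had groups apart. The fit pooled the scatter of control and cKO arrays, so small scatter within the cKO groups favoured a call in controls. The shares over all genes are therefore not a like-for-like baseline, and these counts are not an independent repeat of the control result. Muscle signal also differed by diet in the cKO arrays, and its part in these counts was not tested. The median differences in cKO arrays were 0.639 and -0.495, smaller than the 1.16 and -0.919 of the controls, in which the genes had been selected.

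In the cKO arrays the differences of macrophage genes were 2.49 for Cd68, 2.67 for Mpeg1, 3.45 for Ctss, 2.22 for C1qb and 1.52 for Mmp12. Those of vessel and proliferation genes were 0.72 for Eng, 0.45 for Pecam1, 0.25 for Cldn5 and 0.36 for Mki67. The interaction of genotype and diet had 0 calls in limma (0% of genes tested), with 677 genes (3.81%) at an unadjusted p under 0.05, so no gene's diet effect was shown to differ between controls and cKO arrays. Its highest statistics were those of Rassf9 (1.90 in controls and 0.14 in cKO arrays), Meox1 (1.65 and 0.39), Tnc (0.81 and -0.02) and Ttc39b (0.69 and 0.07). Its lowest were those of Zfp420 (-0.24 in controls and 0.34 in cKO arrays), Acsl4 (-0.77 and 0.000767), Ifit3b (-1.01 and 0.21) and Lgr4 (-1.01 and -0.09).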

How the data were processed

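Total RNA of BAT was measured on Affymetrix arrays. The authors deposited log2 signals for each array, which run from 2.1167 to a ceiling of 19.9315. The submitters' processing notes name PLIER 2.0 and Affymetrix Expression Console 1.1.1. The between-array normalization is not given in the sources used here, and the values were used without further normalization. BAT array medians lay between 4.069 and 4.157. Precision is limited by the number of arrays.

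Of 72688 features, 30604 had 1 gene symbol in the platform annotation, 2146 had several and 33206 had none; 6732 were controls. Symbols were updated through RefSeq (GRCm38.p6; 30602 features matched). Features with a BAT mean of at least 4.0535, the median feature, were kept, the brightest per gene (17776 genes).

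The 12 BAT arrays were fitted by limma 3.58.1 (R 4.3.3) with 4 group means (lmFit, eBayes; two-sided, Benjamini-Hochberg, threshold 0.05); ± gives its SE. The procedure was tested on simulated data. The comparison, the members and the 37 gene lists were chosen with earlier results of these data known. Named were the 12 largest rises and 12 largest falls past the threshold with groups apart (predicted genes, small RNAs and olfactory receptors left out), up to 4 list members by smallest p, 7 fixed genes (Ucp1, Lep, Fasn, Scd1, Pdk4, Arntl, Adgre1) and the 4 highest and lowest interaction statistics; not all are printed. Alternatives are given in the closing section.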

Additional observations from a re-analysis of the deposited data

How the results depend on the processing

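The 132 calls, 109 higher and 23 lower, became 122 with a pseudocount of 16, 133 with no filter, 131 with the mean of a gene's features and 135 with a trended and robust prior. Quantile normalization left 64 (56 higher and 8 lower). With the 6 control arrays alone there were 152 calls, 23 higher and 129 lower, of which 22 were among the 132. In limma, 0 genes passed with array weights, with the muscle covariate and, as alternatives chosen after seeing the data, without SD arrays 1 and 3 or without SD array 1 and cKO SD array 2; at an unadjusted p under 0.05 there were 3087, 1761, 1251 and 2583 genes. Leaving out 1 array gave 0 to 2677 calls, 0 to 1539 higher and 0 to 1138 lower; for the interaction, 0 to 2, the 2 without HFD array 3, and 0 under every other alternative run. The muscle difference lay between -8.26 and -3.52 without 1 array, and was -5.21 after quantile normalization and -4.95 with the pseudocount. The cause of these changes was not tested.

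Of 56 named genes that passed, 28 kept their call under quantile normalization, 15 with the 6 arrays alone, 56 without SD array 2, 19 without HFD array 3, 5 without SD array 1, 4 without HFD array 2 and 0 without HFD array 1 or SD array 3 (2836 and 2482 genes at an unadjusted p under 0.05); 0 of the 56 changed sign under any alternative run. The uncalled Fasn was -0.00235 after quantile normalization, -0.0671 without SD array 1 (with or without cKO SD array 2), -0.126 with the covariate and -0.192 without SD arrays 1 and 3; without 1 array it lay between -0.0671 and 0.405. The uncalled Lep was 0.213 with array weights, 1.4 without HFD array 3, 0.576 without SD array 1 (with or without cKO SD array 2), 0.317 with the covariate and 0.641 without SD arrays 1 and 3; without 1 array it lay between -0.767 and 1.4.

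Arrays of the same number in the 2 diets deviated together with r of 0.0207, 0.284 and 0.254, each best with its own number, which is a hint and not a pairing. With the replicate block 0 genes passed in limma (lowest adjusted p 0.0557; 3460 at an unadjusted p under 0.05).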

Other observations

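Small nuclear RNAs, the RNA parts of the splicing machinery, were lower on HFD as a class. Of 620 tested genes annotated as snRNA, 561 had a negative difference, as had 7781 of all 17776 genes tested. The median of the class was -1.06 beside 0.04 over all genes, and 0 of the 620 passed in limma over the 12 arrays. The mean log2 signal of the class was 7.66, 7.52 and 7.58 on HFD arrays 1 to 3, against 8.85, 8.49 and 8.58 on SD arrays 1 to 3, so the groups did not overlap and SD array 2, without muscle signal, lay with the other SD arrays. The median was -1.12 after quantile normalization, -1.001 without SD array 1, -0.66 with the muscle covariate and -1.36 in the arrays labelled cKO. When limma used the 6 control arrays alone, 108 of its 129 falls were snRNA genes, a class that held 620 of the 17776 genes tested. Many of these genes are near-identical copies whose probes share signal, so they are not separate measurements.

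Of 7 tested genes of Schwann cells and sympathetic nerves 0 passed in limma, 5 differences were negative, and the median was -0.14. The myelin gene Pmp22 differed by -0.72 and the adhesion gene Ncam1 by -0.78. S100b ran the other way. This calcium-binding protein, which brown adipocytes are known to secrete and which promotes sympathetic innervation in mice, had 13.17, 12.78 and 10.57 on HFD and 5.16, 10.27 and 7.94 on SD. The groups did not overlap, and the difference was 4.38 ± 1.47 (limma adjusted p = 0.143), 1.90 against SD array 2 alone and 2.28 in the arrays labelled cKO.

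The complement gene C7, expressed by stromal cells, had 6.87, 6.69 and 7.75 on HFD and 10.69, 9.01 and 11.21 on SD (adjusted p = 0.0831), and haptoglobin, Hp, an acute phase protein also made by adipocytes, had 16.48, 15.77 and 16.57 on HFD and 13.83, 15.26 and 14.39 on SD (adjusted p = 0.115). Igf1, insulin-like growth factor, had 6.90, 5.89 and 7.29 on HFD and 10.42, 7.36 and 9.44 on SD (adjusted p = 0.162). In each of these SD array 2 was the SD array closest to the HFD arrays, and the part of tissue makeup was not tested.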
